A study of Rattus norvegicus with 12 samples.

Results

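The endoplasmic reticulum (ER) folds, modifies and checks every protein that a cell secretes or sends to its surface, and 34 genes that do this work or signal its overload are described here. A gene was a member when its symbol in the array's probe annotation, brought up to date, stood on a list of 34 names; the rule itself uses no expression value, but the list was drawn up with earlier results of these data known. All 34 were measured, among 16633 genes in all. They comprise 16 folding genes, 7 genes of ER-associated degradation, 2 translocon genes, 4 stress sensors and their transcription factors, and 5 genes of the PERK/ATF4 branch.

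Expression was measured in XEN cells, cultured rat cells of the extraembryonic (yolk sac) endoderm lineage, here from the Fisher strain, on 12 Affymetrix arrays in 4 groups of 3. CHIR cells were kept for 2 days in 3 µM CHIR99021, which blocks the kinase GSK3 and so turns on Wnt/β-catenin signalling. Forskolin cells received 10 µM forskolin, a direct activator of adenylate cyclase that raises cyclic AMP, for 1 day. CHIR plus forskolin cells had CHIR99021 at the same dose for 2 days and forskolin on the second of them, and control cells had neither compound. Serum was reduced for the last day in all 4 groups, control included. CHIR and forskolin also differed in days of exposure, so compound and duration cannot be told apart between them. The labels name 3 parallels per group without saying that they were separate cultures, so the tests rest on array-to-array spread that may be technical only.

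Each gene value is the median log2 signal of its probe sets, of which the members had 3 to 26 (median 10). A gene was called higher or lower where limma's moderated test gave a p under 0.05 after Benjamini-Hochberg adjustment over all 16633 genes; this adjusted p is written q in what follows. Signals of 1102 olfactory receptor genes, taken as a guide to background, had a 95th percentile of 6.42, and 33 of the 34 members lay above it in all 4 groups. Derl3 did so in forskolin and control cells only. Array medians lay between 7.76 and 7.86, and arrays of a group correlated at 0.995 to 0.997. In bulk RNA, fewer cells of a type and less RNA per cell cannot be told apart.

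Markers of the cell type and of related cells moved with the compounds. All 7 measured genes of the extraembryonic endoderm core were above background in every group, with summed signals of 30300 to 31100 in CHIR cells, 42100 to 43600 in forskolin cells, 34200 to 36100 in CHIR plus forskolin cells and 38700 to 40200 in control cells. In CHIR cells 4 of the 7 were called lower than in control cells (Dab2 -1.07, Gata6 -0.59, Sox7 -0.29 and Sox17 -0.28) and 0 higher (0 unadjusted). The 9 measured parietal endoderm genes had summed signals of 35100 to 37800 in CHIR cells, 63200 to 66600 in forskolin cells, 37500 to 38900 in CHIR plus forskolin cells and 62000 to 64900 in control cells. All 9 were called lower in CHIR cells and in CHIR plus forskolin cells than in control cells, and 0 in forskolin cells (0 unadjusted). The 7 measured visceral endoderm genes summed to 6200 to 6700 in CHIR cells, 2650 to 2750 in forskolin cells, 1920 to 2220 in CHIR plus forskolin cells and 6190 to 6910 in control cells. Within that list CHIR lowered Cubn (-4.19) and Amn (-1.15) and raised Ihh (1.52), Cdh1 (1.31) and Hnf4a (1.25). Forskolin lowered Hnf4a (-2.04), Amn (-1.39), Cdh1 (-1.35) and Cubn (-1.29), and Afp lay under the background guide in every group. Of 3 trophoblast genes Cdx2 rose with CHIR (2.16) and with both compounds (1.98), and of 3 pluripotency genes Pou5f1 fell (-1.46 and -1.34), while Nanog, Sox2, Elf5 and Krt7 lay under the guide in every group. None of the 3 endothelial and blood genes was above it in any group. Of 4 genes listed for fibroblasts 2 were higher with CHIR, Pdgfra (0.31) and Col1a2 (0.27, under the guide). Pdgfra was bright in every group (12.34 in control and 12.65 in CHIR cells), and Col1a1 lay above the guide (7.17 in control cells). Thy1 lay under it in every group, and whether fibroblasts were present was not tested. The part of these markers in the members' results was not tested.

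Unfolded proteins in the ER are sensed by a trio of membrane proteins. IRE1α (gene Ern1) splices the Xbp1 messenger, ATF6 is cut free from the membrane, and both resulting factors switch on chaperone and degradation genes. PERK (Eif2ak3) instead phosphorylates a translation initiation factor, which slows protein synthesis and favours translation of ATF4, the activator of Ddit3 (CHOP), Trib3, Chac1 and Asns. Parietal endoderm secretes large amounts of basement membrane protein, a heavy folding load.

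The best known control sites of these genes lie just upstream of their start. The ER stress response element (ERSE), which reads CCAAT, 9 bases of any kind and CCACG, was present on either strand in the 300-base window (250 bases before to 50 after the annotated start) of 8 of 27 members with a RefSeq window. Among 27457 genes with a window, 21 (0.0765%) held it. The members were the folding genes Hspa5, Hsp90b1, Dnajc3, Creld2, Calr and Canx, and also Derl3 and Xbp1, and Hsp90b1 held 2 copies. ERSE-II, which reads ATTGG, 1 base of any kind and CCACG, was found in Hyou1, Dnajb11 and Herpud1, against 17 genes (0.0619%) in all. None of the 5 PERK/ATF4 genes held either element. The UPRE, TGACG directly followed by TGG, was present in Hyou1 only of the 27 member windows, against 0.681% of all genes. An ATF4 site, here TGATG, 1 base of any kind and AA, was present in Herpud1, Trib3 and Chac1, against 4.16% of all genes. The cyclic AMP response element (TGACG directly followed by TCA) and the TCF site ATCAAAG were found in 0 of the 27 member windows, against 2% and 3.95% of all genes. ERSE contains the CCAAT box and ERSE-II its reverse complement, and a CCAAT box alone was present in 23 of 27 members and 39.6% of all genes. A match is a description of the letters in this window only. ERSE and ERSE-II were searched for as known control sites of these genes, so their shares among members are no independent result. Pdia3, Pdia6, Manf, Atf6, Ern1, Sec61a1 and Derl1 were not matched to a window.

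The 250 bases upstream of 6 members picked as examples are given 5′ to 3′ on the gene's strand, from RefSeq on build GRCr8. ERSE, ERSE-II and ATF4 sites are in capitals. The same stretches of Ddit3 and Asns, not printed, held none of these sites. Hspa5 (chr3:38452766-38453015, plus strand) and Hsp90b1 (chr7:23012294-23012543, minus strand) show the classic chaperone promoter with ERSE copies. Derl3 (chr20:12766466-12766715, minus strand) and Sdf2l1 (chr11:97376628-97376877, plus strand) are the members with the largest falls under CHIR, the first with an ERSE on its opposite strand and the other without a match. Herpud1 (chr19:10614708-10614957, minus strand) has an ERSE-II and an ATF4 site, and Trib3 (chr3:161275534-161275783, minus strand) an ATF4 site.
Hspa5: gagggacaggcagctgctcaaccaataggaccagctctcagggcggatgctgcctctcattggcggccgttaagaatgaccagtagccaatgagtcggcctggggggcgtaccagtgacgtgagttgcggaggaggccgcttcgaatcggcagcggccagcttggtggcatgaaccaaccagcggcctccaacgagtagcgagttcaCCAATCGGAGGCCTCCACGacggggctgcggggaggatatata
Hsp90b1: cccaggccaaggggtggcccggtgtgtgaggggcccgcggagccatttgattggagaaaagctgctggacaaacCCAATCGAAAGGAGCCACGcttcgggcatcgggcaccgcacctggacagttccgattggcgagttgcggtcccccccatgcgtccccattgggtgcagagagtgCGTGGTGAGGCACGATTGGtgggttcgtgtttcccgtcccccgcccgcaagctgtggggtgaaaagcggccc
Derl3: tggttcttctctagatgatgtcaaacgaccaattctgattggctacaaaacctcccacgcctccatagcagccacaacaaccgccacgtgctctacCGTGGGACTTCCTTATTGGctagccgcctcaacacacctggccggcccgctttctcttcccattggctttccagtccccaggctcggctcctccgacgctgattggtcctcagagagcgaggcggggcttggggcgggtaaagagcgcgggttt
Sdf2l1: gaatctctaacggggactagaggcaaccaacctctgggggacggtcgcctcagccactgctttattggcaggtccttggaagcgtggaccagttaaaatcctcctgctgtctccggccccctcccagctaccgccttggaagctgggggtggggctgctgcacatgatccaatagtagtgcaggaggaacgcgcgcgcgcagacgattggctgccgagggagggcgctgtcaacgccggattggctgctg
Herpud1: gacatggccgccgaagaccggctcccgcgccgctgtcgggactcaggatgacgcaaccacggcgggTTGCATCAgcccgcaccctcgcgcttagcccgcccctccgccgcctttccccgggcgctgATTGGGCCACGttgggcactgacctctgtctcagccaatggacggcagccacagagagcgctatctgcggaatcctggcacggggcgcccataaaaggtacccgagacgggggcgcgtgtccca
Trib3: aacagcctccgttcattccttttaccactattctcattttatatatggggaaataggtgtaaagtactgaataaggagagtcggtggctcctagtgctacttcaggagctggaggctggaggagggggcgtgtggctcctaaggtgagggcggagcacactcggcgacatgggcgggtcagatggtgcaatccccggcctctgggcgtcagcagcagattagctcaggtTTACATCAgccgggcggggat

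CHIR lowered the folding machinery broadly. In CHIR cells 13 of the 16 folding genes were called lower than in control cells and 0 higher (0 higher also at an unadjusted p under 0.05), with differences from -1.45 to -0.07 on the log2 scale. Over all 34 members, 18 were lower and 1 higher, while 13.9% of all 16633 genes were called lower and 14.3% higher (28.1% in either direction). The median log2 difference was -0.40 for folding genes, -0.25 for degradation genes and -0.13 for PERK/ATF4 genes, against 0.01 for all genes. All 176 probe sets of the folding genes were lower in CHIR cells than in control cells, compared with 47.2% of the 172924 probe sets of all genes; probe sets share the same arrays and are not replicates.

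**Figure D1:**
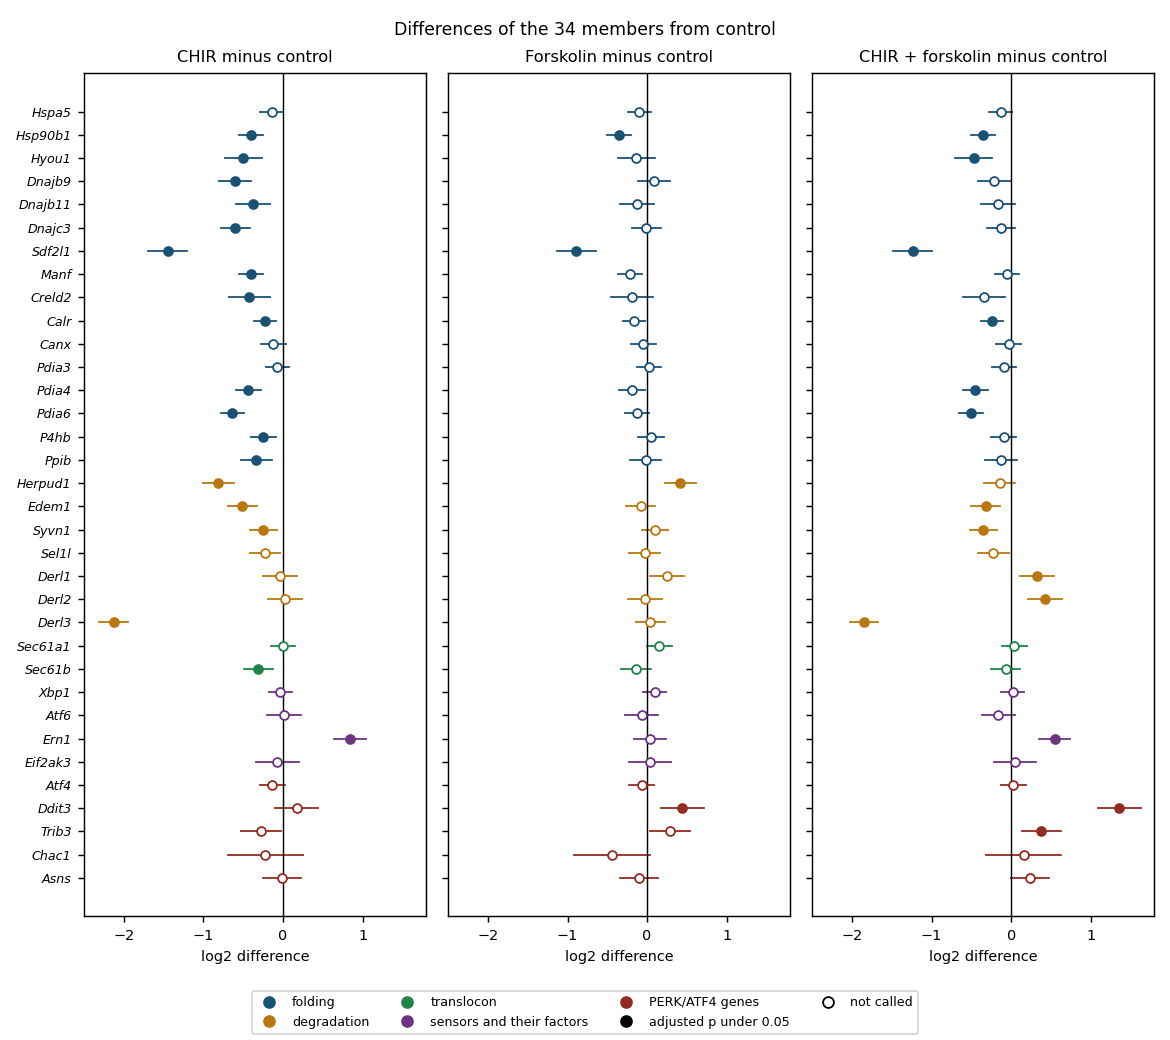
Log2 differences of the 34 members from control (x axis) for CHIR, forskolin and CHIR plus forskolin, with 95% confidence intervals from the fit of 4 groups of 3 arrays; filled points have an adjusted p under 0.05. Under CHIR all 16 folding genes lie below 0 and 13 are filled, whereas under forskolin 2 are.

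Hspa5 encodes BiP, the ER's main Hsp70 chaperone and the usual gauge of ER stress. Its signal was 13.26, 13.20 and 13.27 in CHIR cells, 13.29 in each of the 3 forskolin arrays, 13.21, 13.26 and 13.29 in CHIR plus forskolin cells, and 13.41, 13.36 and 13.38 in control cells. The control arrays were highest and did not overlap any treated group, but the distances were small. The CHIR difference of -0.14 (SE 0.066, 95% interval -0.28 to 0.00) had an adjusted p of 0.143, and those of forskolin (-0.10, q = 0.415) and of both compounds (-0.13, q = 0.171) also missed the threshold. Hspa5 was lower on 10 of its 10 probe sets in CHIR cells. With a variance trend in the fit it was called lower in CHIR cells and in CHIR plus forskolin cells (adjusted p 0.0109 and 0.0168).

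Hsp90b1 encodes GRP94, the ER's Hsp90, which folds a smaller set of client proteins. It read 13.03, 12.92 and 12.86 in CHIR cells, 12.98, 12.99 and 12.98 in forskolin cells, 13.02, 12.97 and 12.95 in CHIR plus forskolin cells, and 13.35, 13.33 and 13.32 in control cells. Every treated array lay below every control array, and the treated groups overlapped one another. The falls against control were -0.40 with CHIR (SE 0.070, q = 0.000551), -0.35 with forskolin (q = 0.00363) and -0.36 with both (q = 0.00142).

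Sdf2l1, a BiP partner that keeps misfolded proteins soluble, had the largest fall among the folding genes. It read 7.74, 7.87 and 7.92 in CHIR cells, 8.63, 8.40 and 8.17 in forskolin cells, 7.96, 8.07 and 8.13 in CHIR plus forskolin cells, and 9.45, 9.15 and 9.28 in control cells. Control arrays stood above every treated array, CHIR arrays were lowest, and forskolin arrays lay between. Sdf2l1 fell 2.73-fold with CHIR (log2 difference -1.45, SE 0.11, q = 2.71e-07), 1.86-fold with forskolin (-0.89, q = 8.98e-05) and 2.36-fold with both (-1.24, q = 1.52e-06). These falls were called in all 18 processing alternatives.

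The other folding genes called lower in CHIR cells lay between -0.64 and -0.23. Among them were the disulphide isomerases Pdia6 (-0.64, q = 7.56e-06), Pdia4 (-0.44, q = 0.000407) and P4hb (-0.25, q = 0.0241). The BiP co-chaperones Dnajb9 (-0.60, q = 0.000193), Dnajc3 (-0.60, q = 7.26e-05) and Dnajb11 (-0.38, q = 0.00935) fell too, as did Hyou1, the nucleotide exchange factor of BiP (-0.50, q = 0.00289). Manf, a secreted ER stress-responsive protein that binds BiP, fell by 0.41 (q = 0.000541), the ER stress-induced isomerase-like Creld2 by 0.42 (q = 0.0178), the lectin chaperone Calr by 0.23 (q = 0.0178) and the proline isomerase Ppib by 0.34 (q = 0.012). Canx, the membrane-bound lectin chaperone, and Pdia3, its disulphide isomerase partner, had differences of -0.12 and -0.07 and were not called.

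Degradation genes divided. Derl3, a membrane protein of the channel that retrotranslocates misfolded proteins, read 5.50, 5.65 and 5.59 in CHIR cells, 7.77, 7.83 and 7.65 in forskolin cells, 5.93, 5.77 and 5.88 in CHIR plus forskolin cells, and 7.82, 7.64 and 7.66 in control cells. The arrays with CHIR, alone or combined, lay under the background guide of 6.42 and those without it lay above, so the 4.38-fold fall with CHIR (-2.13, SE 0.083, q = 2.99e-10) may understate the change. It was lower on 7 of 8 probe sets. The related Derl1 (-0.04) and Derl2 (0.02) had adjusted p of 0.841 and 0.909.

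Herpud1, a scaffold of the degradation complex, read 10.17, 10.16 and 10.25 in CHIR cells, 11.43, 11.42 and 11.42 in forskolin cells, 10.65, 10.98 and 10.96 in CHIR plus forskolin cells, and 10.95, 11.11 and 10.96 in control cells. CHIR arrays were lowest and forskolin arrays highest, with no overlap, while the combination overlapped control. Herpud1 fell by 0.81 with CHIR (SE 0.092, q = 1.03e-05) and rose by 0.42 with forskolin (q = 0.00647), and the combination differed from control by -0.14 (q = 0.287). Edem1, which directs misfolded glycoproteins to disposal, fell by 0.51 with CHIR (q = 0.000343), and Syvn1, the ubiquitin ligase of the complex, by 0.25 (q = 0.0265). Its partner Sel1l had a difference of -0.23 and was not called (q = 0.0752). Of the translocon subunits, through which new proteins enter the ER, Sec61b fell by 0.31 (q = 0.0141) and Sec61a1 did not pass the test (0.00, q = 0.992).

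Ern1 was the only member called higher in CHIR cells than in control cells. It read 10.36, 10.38 and 10.19 in CHIR cells, 9.50, 9.40 and 9.62 in forskolin cells, 9.96, 10.03 and 10.07 in CHIR plus forskolin cells, and 9.32, 9.53 and 9.58 in control cells. Both groups with CHIR lay above both groups without it on every array. Ern1 rose by 0.84 with CHIR (SE 0.092, q = 8.22e-06) and was higher on 21 of 21 probe sets. The messenger it splices, Xbp1, read 13.07, 12.97 and 13.02 in CHIR cells, 13.14, 13.18 and 13.14 in forskolin cells, 13.08, 13.04 and 13.10 in CHIR plus forskolin cells, and 13.02, 13.10 and 13.04 in control cells. CHIR, combination and control arrays overlapped and forskolin arrays lay just above them; the CHIR difference for Xbp1 was -0.04 (95% interval -0.18 to 0.11, q = 0.774); gene values do not separate its spliced form. Atf6 (0.01, q = 0.956) and Eif2ak3 (-0.07, q = 0.752) also missed the threshold.

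Leaving out single arrays ended 6 of the 19 CHIR calls, with adjusted p of 0.0534 to 0.107. The calls lost were Creld2 (without control 3, CHIR 1 or CHIR 2), Calr and Ppib (control 3 or CHIR 1), P4hb (control 1, control 2 or CHIR 3), Sec61b (control 1, CHIR 1 or CHIR 3) and Syvn1 (control 2, control 3 or any CHIR array).

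**Figure D2:**
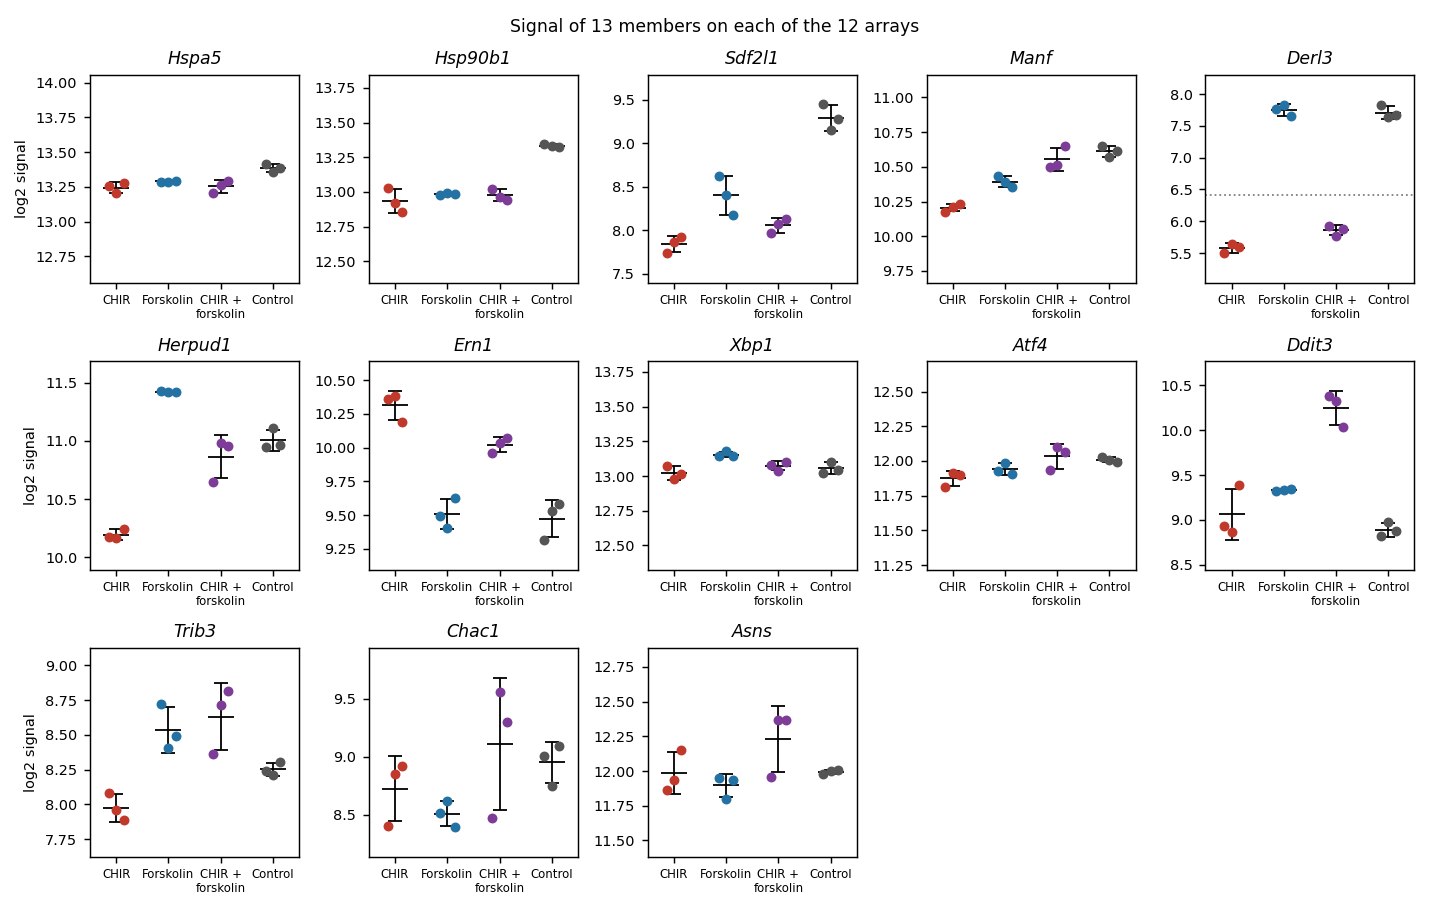
Log2 signal (y axis) of 13 members on each array, by group on the x axis with 3 arrays each; points are arrays, bars the mean and SD, and the dotted line in the Derl3 panel is the background guide of 6.42. Derl3 lies under the line in both groups with CHIR, and Ddit3 is highest in CHIR plus forskolin cells (10.04 to 10.38).

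In forskolin cells 2 members were called higher than in control cells, Herpud1 and Ddit3, and 2 lower, Sdf2l1 and Hsp90b1, or 4 of 34 where 15.0% of all genes were called (6.07% higher and 8.92% lower; with arrays centred on their medians, 50.7% of all calls were higher in place of 40.5%). The share of members called was thus near that of all genes, and the count was 9 when probe sets were averaged, 8 with a variance trend and 2 with the brightest probe set. The median difference was -0.13 for folding genes and 0.04 for degradation genes, against -0.0036 for all genes. Ddit3 encodes CHOP, the transcription factor that follows ATF4 and is linked to cell death under prolonged stress. It read 8.94, 8.86 and 9.39 in CHIR cells, 9.32, 9.33 and 9.35 in forskolin cells, 10.38, 10.33 and 10.04 in CHIR plus forskolin cells, and 8.82, 8.97 and 8.88 in control cells. Forskolin arrays lay above control arrays without overlap and combination arrays above all others, while CHIR replicate 3 stood apart from the other CHIR arrays. Ddit3 rose by 0.44 with forskolin (SE 0.13, q = 0.03). That call was lost without control 1 or 3 or any forskolin array, with adjusted p of 0.0703 to 0.0898.

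The combination lowered some folding genes and, of the PERK/ATF4 genes, raised Ddit3 and Trib3. In CHIR plus forskolin cells 6 of 16 folding genes were lower than in control cells and 0 higher (0 at an unadjusted p under 0.05), with a median of -0.19. Of the 5 PERK/ATF4 genes 2 were higher and 0 lower (0 unadjusted), with a median of 0.235, against 0.01 for all genes. Over all members 5 were higher (14.7%) and 9 lower (26.5%), where 29.0% of all genes were called (14.3% higher and 14.7% lower). The share of members called higher was thus near that of all genes. Of the 31 probe sets of the PERK/ATF4 genes, 29 were above control, against 87338 of 172924 for all genes. Asns held 14 of the 31, Chac1 4 and Atf4 3, and these genes were not called against control.

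Ddit3 showed the largest rise, 2.56-fold over control (log2 difference 1.36, SE 0.13, q = 1.72e-06), on 4 of 4 probe sets. Trib3, a pseudokinase that ATF4 and CHOP induce, read 8.08, 7.96 and 7.89 in CHIR cells, 8.72, 8.40 and 8.49 in forskolin cells, 8.36, 8.72 and 8.82 in CHIR plus forskolin cells, and 8.24, 8.21 and 8.30 in control cells. Both groups with forskolin lay above control and CHIR arrays lay below it, without overlap. Trib3 rose by 0.38 with both compounds (q = 0.0234), while the CHIR (-0.28, q = 0.0992) and forskolin (0.29, q = 0.129) differences were not called. The Trib3 rise was lost without control 1, control 2, combination 2 or combination 3 (adjusted p 0.0576 to 0.112) and when probe sets were averaged or the brightest was taken.

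Atf4 itself, which is regulated mainly through its translation, read 11.81, 11.91 and 11.90 in CHIR cells, 11.93, 11.99 and 11.90 in forskolin cells, 11.94, 12.10 and 12.06 in CHIR plus forskolin cells, and 12.03, 12.01 and 11.99 in control cells. It was called in none of the 7 comparisons (-0.13 with CHIR, q = 0.212, and 0.02 with both compounds, q = 0.855). Chac1, which degrades glutathione, read 8.40, 8.86 and 8.92 in CHIR cells, 8.52, 8.62 and 8.40 in forskolin cells, 8.47, 9.56 and 9.30 in CHIR plus forskolin cells, and 9.01, 8.75 and 9.10 in control cells. Asns, asparagine synthetase, read 11.87, 11.93 and 12.15 in CHIR cells, 11.95, 11.80 and 11.94 in forskolin cells, 11.96, 12.37 and 12.37 in CHIR plus forskolin cells, and 11.98, 12.00 and 12.01 in control cells. For both genes combination replicate 1 lay below combination replicates 2 and 3 and inside the range of the CHIR arrays. That array was not low for these 2 genes only. The median signal over all 34 members was 10.70 there, against 10.97 and 10.99 in combination replicates 2 and 3. Ddit3 went the other way and was highest there (10.38). Neither was called against control with both compounds (Chac1 0.16, q = 0.671; Asns 0.24, q = 0.143). Without combination replicate 1 both were called higher (q = 0.037 for Chac1 and 0.0112 for Asns).

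Among degradation genes the combination lowered Derl3 (-1.85, q = 1.24e-09), Syvn1 (-0.35, q = 0.00325) and Edem1 (-0.32, q = 0.0107), and raised Derl2 (0.42, q = 0.00519) and Derl1 (0.32, q = 0.0249). The Derl1 rise was lost without control 2, control 3, combination 2 or combination 3 (q = 0.0664 to 0.106). Ern1 rose by 0.55 (q = 0.000412). The folding genes that fell besides Sdf2l1 and Hsp90b1 were Pdia6 (-0.51, q = 6.66e-05), Hyou1 (-0.47, q = 0.00446), Pdia4 (-0.45, q = 0.000336) and Calr (-0.24, q = 0.0128).

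**Figure D3:**
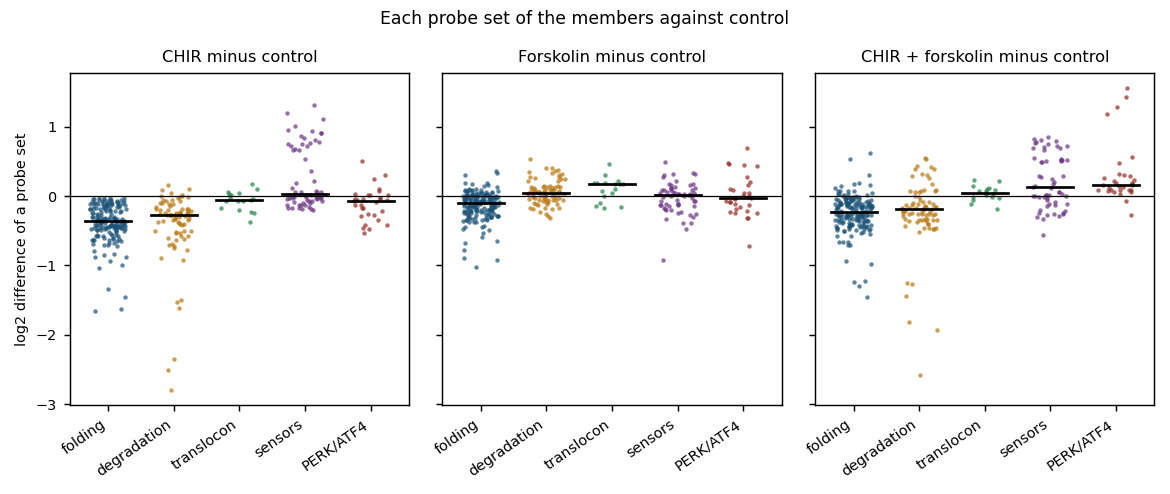
Log2 difference from control (y axis) of each of the 365 probe sets of the members, by role on the x axis; dots are probe sets and lines their medians. With CHIR all 176 folding probe sets lie below 0, and with CHIR plus forskolin 29 of 31 PERK/ATF4 probe sets lie above 0.

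In CHIR plus forskolin cells 9 of 34 members were higher than in CHIR cells and 0 lower (1, Ern1, at an unadjusted p under 0.05), where 13.8% of all genes were called (6.51% higher and 7.33% lower). The rises were Ddit3 (1.19, SE 0.13, q = 1.92e-05), Herpud1 (0.67, q = 0.000185), Trib3 (0.66, q = 0.00147), Dnajc3 (0.47, q = 0.00145), Derl2 (0.40, q = 0.0155), Dnajb9 (0.39, q = 0.0124), Derl1 (0.36, q = 0.0262), Manf (0.35, q = 0.00407) and Derl3 (0.28, q = 0.038). Derl3 remained under the background guide in both groups. Of the PERK/ATF4 probe sets 30 of 31 were higher in the combination, against 81701 of 172924 for all genes. Asns held 14 of the 31, Chac1 4 and Atf4 3, and these genes were not called here. Ern1 differed by -0.29 and was not called (q = 0.0503). Calls of Dnajb9, Derl1, Derl2 and Derl3 were lost without single arrays (q = 0.0526 to 0.142), combination replicate 3 among them for all 4, and without that array 5 members were called. The count was 14 when probe sets were averaged (13 higher and 1 lower) and 5 with the brightest probe set. Without combination replicate 1, Chac1 (q = 0.00985) and Asns (q = 0.0199) were called too, while Derl3 was not (q = 0.122).

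In cells with forskolin, CHIR lowered 5 of 16 folding genes and 4 of 7 degradation genes, and raised 1 degradation gene. In CHIR plus forskolin cells 9 members were lower and 4 higher than in forskolin cells, where 30.0% of all genes were called (13.6% lower and 16.4% higher). Lower were Derl3 (-1.89, q = 1.25e-09), Herpud1 (-0.56, q = 0.000291), Syvn1 (-0.45, q = 0.000471), Pdia6 (-0.38, q = 0.000798), Sdf2l1 (-0.35, q = 0.0328), Hyou1 (-0.33, q = 0.0323), Dnajb9 (-0.30, q = 0.0261), Pdia4 (-0.26, q = 0.0159) and Edem1 (-0.24, q = 0.0497). Higher were Ddit3 (0.92, q = 6.71e-05), Ern1 (0.51, q = 0.00066), Derl2 (0.45, q = 0.00337) and Asns (0.33, q = 0.0351). Single arrays ended the calls of Hyou1, Dnajb9, Sdf2l1, Pdia4, Edem1 and Asns (q = 0.0553 to 0.171), and 8 members were called without forskolin replicate 1 or 3. Without combination replicate 1 alone, Hyou1, Dnajb9, Sdf2l1 and Edem1 were not called (q = 0.108 to 0.171). Then 5 members were lower in place of 9, and 5 were higher. Chac1 had a difference of 0.60 (q = 0.0541) and was called without combination replicate 1 (q = 0.000587) or CHIR replicate 1 (q = 0.0459).

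Set directly against forskolin cells, CHIR cells had 14 members lower and 1 higher, where 35.2% of all genes were called (15.7% lower and 19.5% higher). The median difference was -0.25 for folding genes and -0.34 for degradation genes, against 0.0025 for all genes. The extremes were Derl3 (-2.17, q = 1.39e-10) and Herpud1 (-1.23, q = 1.07e-07), and Ern1 was the member called higher (0.80, q = 8.26e-06). Of the PERK/ATF4 genes Trib3 was called (-0.56, q = 0.00149). Hspa5 (-0.04, 95% interval -0.19 to 0.10) and Hsp90b1 (-0.05, 95% interval -0.20 to 0.10) were not. Single arrays ended the calls of Derl1, Hyou1, Pdia4 and Ppib (q = 0.0532 to 0.15), and without CHIR replicate 3 Ddit3 was called lower in CHIR cells (q = 0.00611).

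Whether forskolin acted differently in the presence of CHIR was tested as the difference between its effects with and without CHIR, which rest on different arrays. It was called above 0 for 5 members and below 0 for 0 (1, Ern1, at an unadjusted p under 0.05), where 6.31% of all genes were called (3.25% above and 3.07% below). The 5 were Sdf2l1 (1.10, SE 0.16, q = 0.000778), Ddit3 (0.75, q = 0.0219), Manf (0.57, q = 0.00332), Dnajc3 (0.48, q = 0.0255) and Hsp90b1 (0.39, q = 0.0301). Manf read 10.18, 10.21 and 10.23 in CHIR cells, 10.44, 10.39 and 10.35 in forskolin cells, 10.50, 10.51 and 10.65 in CHIR plus forskolin cells, and 10.65, 10.57 and 10.62 in control cells. Forskolin arrays lay below control arrays and combination arrays above CHIR arrays, without overlap. For Sdf2l1 the effect of forskolin was 0.21 with CHIR (q = 0.284) and -0.89 without it. For Ddit3 it was 1.19 with CHIR and 0.44 without it, upward in both. The median was 0.24 for folding genes and 0.37 for PERK/ATF4 genes, against 0.0026 for all genes. Calls of Ddit3, Dnajc3 and Hsp90b1 were lost without single arrays (q = 0.0504 to 0.0705). The count was 3 without control 1, control 2, CHIR 1, CHIR 2, forskolin 2 or forskolin 3, and 2 without combination 2. It was 11 when probe sets were averaged and 2 with the brightest probe set. Without combination replicate 1, Chac1 (q = 0.00514) and Asns (q = 0.0444) were called. Ddit3 (q = 0.0539) and Hsp90b1 (q = 0.0619) were then not called, and the count stayed at 5.

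**Figure D4:**
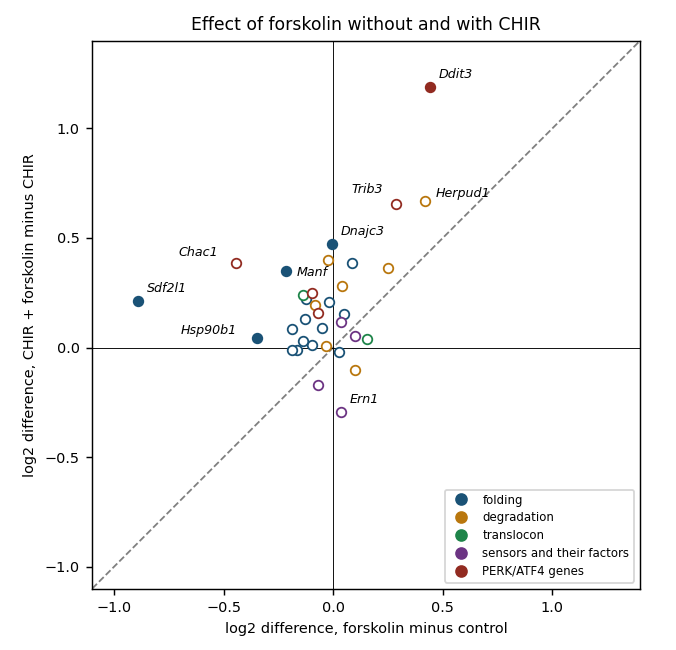
Log2 effect of forskolin on each of the 34 members with CHIR present (y axis) against its effect without CHIR (x axis), 3 arrays per group; the dashed line marks equal effects and filled points have an adjusted p under 0.05 for the difference between them. The 5 filled genes, Sdf2l1, Manf, Hsp90b1, Dnajc3 and Ddit3, lie above the line.

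Genes that work beside the members were described from further lists. With CHIR, 7 of 10 collagen-specific chaperones and modifying enzymes were lower than control and 0 higher (0 unadjusted), among them the prolyl hydroxylase subunit P4ha1 (-0.60, q = 0.000186), the lysyl hydroxylase Plod2 (-0.57, q = 0.0001) and the prolyl 3-hydroxylase P3h1 (-0.57, q = 0.000345). Of 24 other folding and disulphide enzymes 8 were lower and 0 higher (0 unadjusted), led by the proline isomerase Fkbp7 (-1.09, q = 2.06e-06), the disulphide oxidase Ero1b (-1.08, q = 8.18e-05) and the proline isomerase Fkbp9 (-0.91, q = 6.51e-07). Of 18 glycosylation genes 5 were lower and 0 higher (0 unadjusted), led by the oligosaccharyltransferase subunit Tusc3 (-0.61, q = 0.000815). Of 18 degradation partners 6 were lower and 2 higher, of 17 export genes 2 and 2, of 19 translocation genes 5 and 3, and of 21 other sensors and regulators 4 and 3. In this comparison 13.9% of all genes were called lower and 14.3% higher. The export genes (11.8% lower and 11.8% higher) and the other sensors and regulators (19% and 14.3%) were near those shares. For translocation genes (26.3% lower and 15.8% higher) and degradation partners (33.3% and 11.1%) the higher share was near that of all genes. Among the other sensors and regulators, Mbtps1, a protease that cuts ATF6, fell by 0.56 (q = 0.000324). The list medians were -0.45 for collagen-specific chaperones, -0.16 for folding enzymes and -0.17 for glycosylation, against 0.01 for all genes.

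Chaperones outside the ER were called mostly in the other direction. Of 20 cytosolic and mitochondrial chaperones 9 were higher in CHIR cells than in control cells and 2 lower (median 0.21). Over all genes 14.3% were called higher and 13.9% lower in that comparison. Among the 9 were Hsph1, a cytosolic Hsp110, at 1.05 (q = 6.66e-05) and the mitochondrial chaperonin Hspe1 at 0.61 (q = 0.00128). The chaperonin subunit Cct3 rose by 0.53 (q = 0.0025). The small heat shock protein Hspb1 (-0.55, q = 0.00543) was lower. Of 13 secreted basement membrane and matrix genes, cargo of the ER, 10 were lower and 1 higher, with the plasminogen activator Plat at -2.35 (q = 1.83e-09) and the laminin-binding Nid1 at -2.04 (q = 2.99e-10). This list is not separate from the markers above. Lama1, Lamb1, Lamc1, Col4a1, Col4a2, Nid1 and Plat were also counted as parietal endoderm genes, and Sparc as a core gene. How far this cargo bears on the members was not tested. In the combination set against CHIR, 9 of 19 translocation genes were higher and 0 lower (1 unadjusted), led by the signal peptidase subunit Sec11c (0.78, q = 0.00119). Over all genes 6.51% were called higher and 7.33% lower there.

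Other ATF4 targets, which supply amino acids and charge transfer RNAs, were described beside the 5 members of that branch. Of 30 measured, 11 were higher in CHIR cells than in control cells and 1 lower, where 14.3% of all genes were called higher and 13.9% lower. Of the 5 member genes 0 were called in that comparison (1 lower unadjusted, Trib3), and the difference between the lists was not tested. The largest were the transaminase Gpt2 (1.70, q = 2.29e-08), the lipoprotein receptor Vldlr (1.38, q = 3.23e-05) and the serine synthesis enzyme Psph (1.11, q = 3.09e-06). In forskolin cells 5 were higher and 4 lower, against 6.07% and 8.92% of all genes, with the amino acid transporter Slc7a5 at 1.35 (q = 1.1e-07). In CHIR plus forskolin cells 14 were higher and 0 lower (0 unadjusted), against 14.3% and 14.7% of all genes, with Vldlr at 1.87 (q = 1.83e-06), Slc7a5 at 1.30 (q = 4.23e-08) and Gpt2 at 1.03 (q = 4.24e-06). The median over the 30 was 0.15 with CHIR, -0.10 with forskolin and 0.25 with both.

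**Figure D5:**
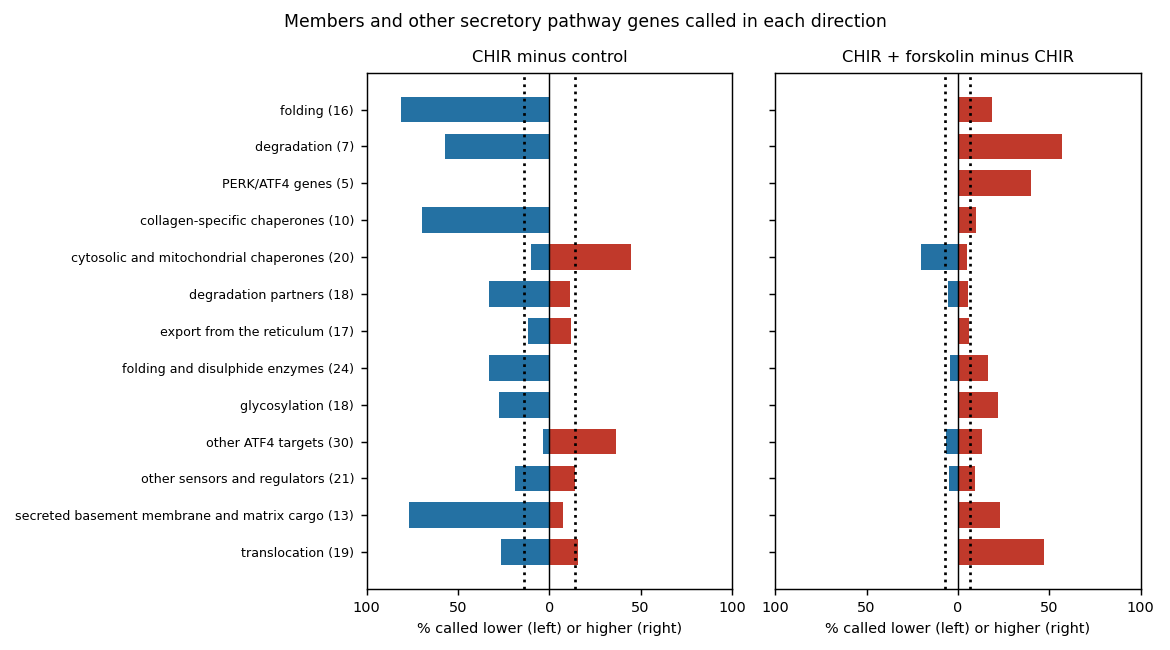
Share of measured genes (x axis, %) called lower (blue, left) or higher (red, right) for 3 groups of members and 10 further lists, with list sizes in parentheses; dotted lines are the shares over all 16633 genes. With CHIR, folding genes, collagen-specific chaperones and secreted cargo reach 81.2%, 70% and 76.9% lower, against 13.9% of all genes.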

How the data were processed

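Total RNA from 12 samples was hybridised to Affymetrix arrays, and the deposited values are log2 signals per probe set; RMA and Partek are named in the submitters' processing notes, with no role, version or settings given in the sources used here. RMA gives log2 values, and the deposited values lie in the usual range of that scale, but no header states the base. Quantile normalisation, if used, makes arrays share 1 distribution, so the values are relative.

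Of 211195 probe sets, 172924 had 1 gene symbol and were used, 1661 had several and 36610 none. Symbols were updated through RefSeq (GRCr8): 12878 were current, 3640 were updated and 115 kept. Hsp90b1 and Manf stood on the array as Tra1 and Armet. The median of a gene's probe sets was fitted in limma 3.58.1 (R 4.3.3), with 4 group means over 12 arrays, no trend, two-sided tests and Benjamini-Hochberg adjustment over 16633 genes at 0.05 (the adjusted p is written q). Array numbers limit the precision.

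The members, lists and tests were chosen with earlier results of these data known. Values by array are given for Hspa5, Hsp90b1, Sdf2l1, Herpud1, Xbp1, Atf4, Ddit3, Trib3, Chac1, Asns and the 3 members with the largest called difference in each comparison; up to 3 called genes per direction are named from each further list. The olfactory receptor guide to background was chosen after seeing the data. The fit was tested on simulated data. Alternatives were the mean or the brightest probe set, array centring, a filter on dim genes, a variance trend, a replicate block and each array left out.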

Additional observations from a re-analysis of the deposited data

Results flagged for a closer look

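The effect of forskolin differed with and without CHIR for 5 members by the test of that difference. On the log2 scale it was 1.1 for Sdf2l1 (q = 0.000778), 0.746 for Ddit3 (q = 0.0219), 0.567 for Manf (q = 0.00332), 0.482 for Dnajc3 (q = 0.0255) and 0.393 for Hsp90b1 (q = 0.0301). The effect of forskolin was 0.21 with CHIR and -0.89 without it for Sdf2l1, 0.35 and -0.22 for Manf, and 0.04 and -0.35 for Hsp90b1. It was 0.47 and -0.01 for Dnajc3, and 1.19 and 0.44 for Ddit3. Sdf2l1 was the member called here in all 18 alternatives.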

How the results depend on the processing

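No called member reversed its direction in any of 18 alternatives. Called in all 18 were 10 of 19 members for CHIR against control, 1 of 4 for forskolin against control, 10 of 14 for the combination against control, 3 of 9 for the combination against CHIR, 7 of 13 for the combination against forskolin, 10 of 15 for CHIR against forskolin and 1 of 5 for the difference between forskolin effects. Averaging probe sets gave 9 calls in place of 4 for forskolin against control, 14 in place of 9 for the combination against CHIR and 11 in place of 5 for the difference. The brightest probe set gave 2, 5 and 2 in the same order, and a variance trend gave 8 for forskolin against control. Leaving out each array gave 14 to 20, 3 to 5, 12 to 16, 5 to 10, 8 to 14, 12 to 16 and 2 to 5 calls, in the order of the comparisons above.

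With the brightest probe set the CHIR falls of Hsp90b1, Hyou1, Manf, Calr, P4hb, Ppib and Sec61b were not called, the causes not being tested; P4hb was also lost with arrays centred. Without single arrays the following were gained: Sel1l (q = 0.0275) and Trib3 (q = 0.0404) lower in CHIR than control; Derl1 (q = 0.0448) higher and Chac1 (q = 0.0477) lower in forskolin than control; Creld2 (q = 0.0343 to 0.0481) and Sel1l (q = 0.0282) lower in the combination than control; Ern1 lower (q = 0.033 and 0.0337) and Sec61b higher (q = 0.0281) in the combination than CHIR; Dnajb11 (q = 0.00691 and 0.0365) and Sec61b (q = 0.0375) lower in CHIR than forskolin; and Sec61b (q = 0.0338) for the difference.

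Same-numbered arrays did not pair: over 18 pairs their deviations correlated at -0.195 to 0.157, with 1 over 0.1. Over 36 pairs of arrays with different numbers the correlations were -0.132 to 0.224, with 3 over 0.1. A replicate block gave 19, 3, 15, 8, 14, 15 and 5 calls in the same order and ended the calls of Ddit3 for forskolin against control and Derl3 for the combination against CHIR. Signal near background limits Derl3 in both groups with CHIR.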

Other observations

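Genes outside the list that hold an ERSE or ERSE-II in their RefSeq window were looked up after the members' promoters had been read. Of the measured genes with either element, 11 were members and 18 were not. In CHIR cells 8 of the 11 members and 5 of the 18 other genes were lower than in control cells, and 0 members and 3 others were higher. Over all genes 13.9% were lower and 14.3% higher, so the 3 higher genes among the others are near that share, and the difference between members and others was not tested. The median log2 difference was -0.40 for the members and -0.06 for the others, against 0.01 for all genes.

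The others that fell included Ero1b, which oxidises the disulphide isomerases of the ER (7.79 in CHIR cells and 8.87 in control cells). Its difference was -1.08 (q = 8.18e-05). The kinase Prkcz fell by 0.97 (q = 0.000225), the zinc finger protein Zfp57 by 0.45 (q = 0.000562) and the calcium-binding Nucb1 by 0.25 (q = 0.0436). Genes with the element that rose were the replication factor Cdc45 (0.60, q = 4.5e-05), Rnf151 (0.49, q = 0.0117) and the anaphase-promoting complex subunit Cdc27 (0.44, q = 0.00133). These genes were named after their values were seen.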
